A study of Mus musculus with 36 samples.

Results

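The expression of 10 genes of T cells and cytotoxic lymphocytes (Cd3d, Cd3e, Cd3g, Cd4, Cd8a, Cd8b1, Foxp3, Nkg7, Gzmb and Il7r) was followed across visceral white adipose tissue (visWAT) and liver of mice kept on normal chow (NCD) or on a diet rich in fat (HFD). The genes were chosen by name, and all 10 were among the 56748 genes of the expression table. Poly(A) RNA was sequenced from both tissues of 18 male mice, giving 36 libraries. Mlkl Adi-KO mice carried loxP-flanked alleles of Mlkl, the gene of the necroptosis effector MLKL, together with Adipo-Cre, which acts in mature adipocytes, so the other cells of visWAT and the liver kept an intact gene. WT mice were littermates with the same loxP-flanked alleles and no Cre. All mice were on a C57BL/6J background, entered the study at 16 weeks of age and were kept on their diet for 16 weeks, with 4 WT and 4 Mlkl Adi-KO mice on NCD and 5 WT and 5 Mlkl Adi-KO mice on HFD. The visWAT was labelled as epididymal adipose tissue.

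The proteins of these genes act at successive steps of T cell life. Cd3d, Cd3e and Cd3g encode the CD3 delta, epsilon and gamma chains, which assemble with the T cell receptor and pass its signal into the cell. Cd4 encodes the co-receptor of helper T cells and also occurs on some myeloid cells, whereas Cd8a and Cd8b1 encode the chains of the co-receptor of cytotoxic T cells. Foxp3 is the transcription factor that defines regulatory T cells, a population known for its abundance in lean visWAT. Nkg7 encodes a membrane protein of cytotoxic granules and Gzmb encodes granzyme B, a protease released from them by cytotoxic T cells and natural killer cells. Il7r encodes the alpha chain of the receptor for interleukin-7, a survival signal of naive and memory T cells, and is also transcribed in other lymphoid and some myeloid cells.

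Of these genes, only Il7r was called higher under HFD in visWAT of both genotypes, and it was the only one of the 10 to exceed 4 FPKM (fragments scaled by gene length and library size) in any library. The CD3 chains, which would be counted in any T cell, stayed below 1 FPKM in all 36 libraries. In liver most of the genes lay at the limit of detection. Libraries held between 20875463 and 30322171 reads on genes, and an FPKM could be turned back into a whole number of reads for every gene. A gene was taken as near the detection limit in a group where the median over its libraries was below 10 reads, and a count of 0 allowed up to 3 reads. By this measure, 9 of the 10 genes were near the limit in liver of Mlkl Adi-KO mice on HFD, 9 in Mlkl Adi-KO mice on NCD, 9 in WT mice on HFD and 8 in WT mice on NCD. Cd4 was the exception in all 4 liver groups, joined by Cd3g, with a median of 10.5 reads, in WT mice on NCD. In visWAT, Foxp3 was near the limit in 3 of the 4 groups, with medians of 3 to 7 reads, and reached 15.5 reads in Mlkl Adi-KO mice on NCD. Gzmb, at a median of 5 reads in Mlkl Adi-KO mice on HFD, and Cd8b1, at 3 reads in Mlkl Adi-KO mice on NCD, were the other genes near the limit in visWAT.

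**Figure D1:**
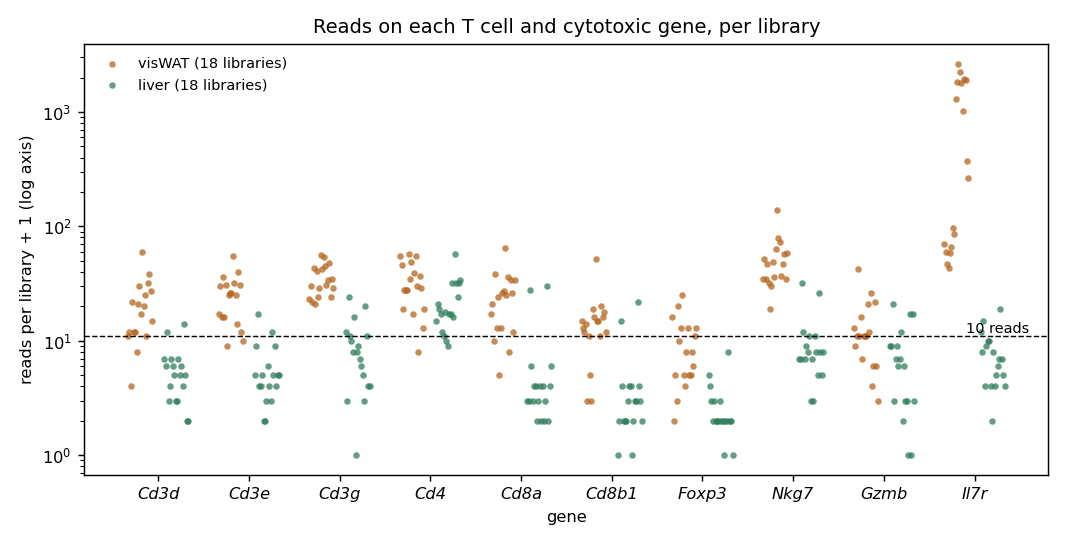
Reads per library on each of the 10 genes, plotted as reads + 1 on a log axis, with 18 visWAT libraries (brown) and 18 liver libraries (green), and a dashed line at 10 reads. Il7r in visWAT spans 42 to 2649 reads, while Foxp3 stays between 0 and 24 reads in all libraries.

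Several library properties bear on these values. In visWAT, Mlkl ranged from 1.96 to 2.72 FPKM in knockout animals and from 2.29 to 6.28 FPKM in WT animals, the lowest WT value being that of the library labelled WT NCD mouse 182, which lay inside the knockout range. The visWAT library of WT NCD mouse 183 had 17.5% of its reads on 5 seminal vesicle genes. Adipoq, the adiponectin gene of adipocytes, was at 743 to 1995 FPKM in visWAT and at most 2.70 FPKM in liver, and Alb, the albumin gene of hepatocytes, was at 0.344 to 460 FPKM in visWAT, highest in Mlkl Adi-KO mouse 156 on HFD, and at 25150 to 47070 FPKM in liver. Rescaling each library to an equal FPKM sum shifted the median over all genes, in log2 units, by 0.43 in the diet comparison of WT visWAT, by 0.34 in the genotype comparison of NCD visWAT, by -0.44 in the visWAT interaction and by 0.84 between tissues, so that changes there are relative to the scaling used. In whole tissue, fewer T cells and less RNA per T cell cannot be told apart.

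The 250 bases upstream of the RefSeq start sites are shown for Il7r, the gene that rose, and for the 3 CD3 genes, which share 1 cluster on chromosome 9 and did not pass between diets in visWAT. RefSeq's promoter table (GRCm38.p6) held 8 of the 10 genes, and each window matched the GRCm39 genome once, at chr15:9529963-9530212 (minus strand) for Il7r, chr9:44892834-44893083 (plus strand) for Cd3d, chr9:44920910-44921159 (minus strand) for Cd3e and chr9:44891730-44891979 (minus strand) for Cd3g. The deposited Il7r gene starts upstream of this RefSeq start, so its window lies within the deposited gene. The deposited Cd3e gene starts at chr9:44920925, so its window reaches into the deposited gene at the end nearest the RefSeq start. Each window shown also overlaps exons of its own gene in the GENCODE annotation. Sequences run 5′ to 3′ along the gene, and capitals mark matches to the 5 motifs searched on both strands.
Il7r: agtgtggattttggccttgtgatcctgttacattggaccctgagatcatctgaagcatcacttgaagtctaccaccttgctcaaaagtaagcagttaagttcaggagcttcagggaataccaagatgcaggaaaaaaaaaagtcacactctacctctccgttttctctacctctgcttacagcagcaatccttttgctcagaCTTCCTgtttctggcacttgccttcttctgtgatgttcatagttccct
Cd3d: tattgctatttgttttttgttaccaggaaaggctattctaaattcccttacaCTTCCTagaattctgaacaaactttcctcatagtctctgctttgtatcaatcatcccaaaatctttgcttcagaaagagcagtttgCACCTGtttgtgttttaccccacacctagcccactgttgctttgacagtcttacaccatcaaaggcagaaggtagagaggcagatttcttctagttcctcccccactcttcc
Cd3e: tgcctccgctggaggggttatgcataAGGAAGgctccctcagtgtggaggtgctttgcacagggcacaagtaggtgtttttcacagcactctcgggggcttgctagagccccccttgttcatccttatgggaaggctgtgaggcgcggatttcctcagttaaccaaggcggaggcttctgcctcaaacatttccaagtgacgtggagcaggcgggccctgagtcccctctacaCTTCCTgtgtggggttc
Cd3g: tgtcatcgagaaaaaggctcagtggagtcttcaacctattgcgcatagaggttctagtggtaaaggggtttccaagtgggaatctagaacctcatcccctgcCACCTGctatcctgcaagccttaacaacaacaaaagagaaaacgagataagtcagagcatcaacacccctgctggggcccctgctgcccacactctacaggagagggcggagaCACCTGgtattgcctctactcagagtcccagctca
The motifs, whose letters were chosen after the windows had been read, were the ETS-type AGGAAG (found in 29.5% of all 32851 promoter windows of this length), the ETS-type CGGAAG (13.6%), the RUNX-type TGTGGT (14%), the E-box CAGGTG (17.2%) and the TATA-type TATAAA (12.4%). Il7r held 1 AGGAAG match, on the opposite strand and starting at -48 from the RefSeq start. Cd3e held 2 such matches, at -224 and -17, and Cd3d held 1 at -198 beside an E-box at -112. Cd3g held 2 E-boxes, at -148 and -35, and no ETS-type match. The matches are letters in a window and were not linked to binding or to the expression values.

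The first comparison asked how HFD altered these genes in visWAT of each genotype. Il7r (chr15:9505874-9530262, mm39) was expressed at 0.416, 0.407, 0.364 and 0.294 FPKM in WT mice 165, 180, 182 and 183 on NCD. In WT mice 154, 155, 161, 162 and 164 on HFD it reached 9.12, 13.2, 14.1, 13.3 and 12.2 FPKM. The 2 WT groups did not overlap, and the group means of 12.4 ± 1.94 (SD, n = 5) and 0.37 ± 0.0556 FPKM (SD, n = 4) stood at a ratio of 33.4. In Mlkl Adi-KO mice 166, 179, 197 and 199 on NCD, Il7r was at 0.373, 0.454, 0.605 and 0.629 FPKM. In Mlkl Adi-KO mice 151, 152, 153, 156 and 157 on HFD it was at 6.71, 11.5, 11.3, 2.71 and 1.77 FPKM. Again the diets did not overlap, with a ratio of means of 13.2, but the 5 knockout mice on HFD spread far more widely (SD 4.59 FPKM) than the 5 WT mice, with mice 156 and 157 lowest.

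On the log2(FPKM + 1) scale, Il7r rose under HFD by 3.27 ± 0.11 (SE) in WT visWAT (limma, adjusted p = 2.17e-07) and by 2.12 ± 0.44 in Mlkl Adi-KO visWAT (limma, adjusted p = 0.00494). This scale shortens fold changes of genes near 0, and edgeR on the recovered reads gave log2 fold changes of 5.03 (adjusted p = 4.02e-07) and 3.71 (adjusted p = 0.00134). In WT visWAT, Il7r was the 1 gene called of the 2 that passed the limma filter of a mean of 0.5 FPKM, against 37.8% of all genes tested, and the 1 called of all 10 by edgeR, against 28.3%. At a mean of 0.37 FPKM on NCD, Il7r passed that filter only through its HFD libraries. The limma count of 1 of 2 there is thus not independent of the diet difference. In Mlkl Adi-KO visWAT, limma called 1 of 2, against 43.7% of all genes, and edgeR called 2 of 10 (Il7r and Cd8b1), against 29.7%. Counts of 1 and 2 among 10 genes, many of them with few reads, are too small to be told apart from these shares. The median log2 fold change of the 10 genes in edgeR was 0.54 in WT and 0.30 in Mlkl Adi-KO mice, beside -0.07 and -0.03 over all genes tested.

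**Figure D2:**
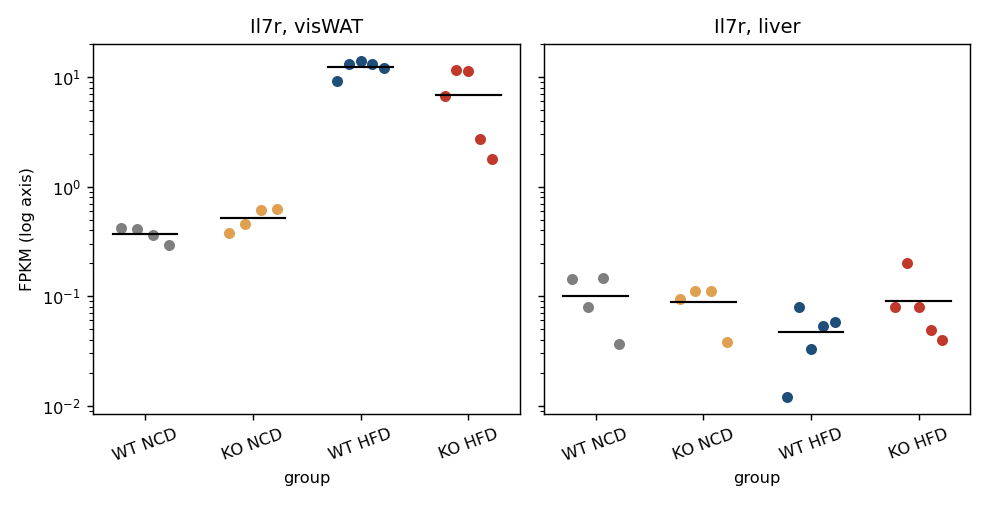
Il7r FPKM (log axis) in each library by group, in visWAT and in liver, with points for mice and lines for group means. In visWAT the HFD groups (means 12.4 and 6.80 FPKM) lie above the NCD groups (0.37 and 0.515 FPKM) without overlap, and all liver libraries lie at or below 0.201 FPKM.

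Relative to Cd3e, Il7r was higher in all HFD libraries than in any NCD library for which the ratio could be formed. Within a library, the FPKM ratio of Il7r to Cd3e was 1.05 to 3.77 in WT mice and 1.90 to 3.32 in Mlkl Adi-KO mice on NCD, in the libraries where both genes had at least 10 reads. On HFD this ratio was 42.9 to 65.1 in WT mice and 29.7 to 69.2 in the 4 Mlkl Adi-KO libraries that met this limit, and since it is taken inside a library it does not depend on the scaling between libraries. The ratio was computed after the Il7r values had been seen. The genes of the lymph node stroma list (Ccl21a, Cxcl13, Cr2, Glycam1 and Madcam1) mark a tissue rich in T cells. They summed to 3.81 to 102 FPKM in visWAT, highest in Mlkl Adi-KO mice 156 on HFD and 179 on NCD. Glycam1 had no reads in any visWAT library of Mlkl Adi-KO mice on HFD. The part of this list in the T cell values was not tested. The summed level of the other 9 genes was 2.59 to 4.50 FPKM in WT visWAT on NCD and 3.82 to 7.19 FPKM on HFD, so these groups overlapped.

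Ptprc and the macrophage list were higher in every HFD than in any NCD visWAT library, as was Il7r. The mast cell list was not, since Mlkl Adi-KO mice 156 and 157 on HFD lay within its NCD range. A list of dendritic cell markers overlapped between diets (4.28 to 9.25 FPKM on NCD and 5.06 to 8.3 FPKM on HFD), as did a plasma cell list (45.8 to 81.3 and 60.8 to 82.5 FPKM). Ptprc, the pan-leukocyte gene of CD45, was at 0.748 to 1.07 FPKM in NCD visWAT, 4.24 to 5.53 FPKM in WT mice on HFD and 1.57 to 5.02 FPKM in Mlkl Adi-KO mice on HFD. The 4 genes of the pan-leukocyte list summed to 26.1 to 39 FPKM on NCD in all visWAT libraries but that of WT mouse 183, at 602 FPKM, to 143.5 to 226.6 FPKM in WT and to 77.2 to 216.3 FPKM in Mlkl Adi-KO mice on HFD. All 4 genes of the mast cell list (Cpa3, Mcpt4, Cma1 and Kit) had reads in every visWAT group, and summed to 10.3 to 26 FPKM on NCD, 38.2 to 83.5 FPKM in WT and 17.8 to 45.4 FPKM in Mlkl Adi-KO mice on HFD, with mice 157 and 156 lowest at 17.8 and 20.5 FPKM. The summed FPKM of all 8 markers of the macrophage list (Adgre1, Cd68, Csf1r, Mrc1, Itgax, Lyz2, C1qa and C1qb, each with reads in every group) was 305 to 413 in WT and 381 to 636 in Mlkl Adi-KO visWAT on NCD, and 2312 to 3225 in WT and 1031 to 2932 in Mlkl Adi-KO visWAT on HFD. The same 2 knockout mice that were lowest in Il7r on HFD, 156 and 157, were also lowest in these markers, at 1052 and 1031, whereas mice 151, 152 and 153 were at 1848, 2653 and 2932. Il7r increased more steeply than the marker sum: per 1000 FPKM of the list it stood at 0.809 to 1.33 on NCD, at 3.94 to 5.67 in WT and at 1.72 to 4.33 in Mlkl Adi-KO mice on HFD. After subtracting group means over the 18 visWAT libraries, the Pearson correlation of Il7r with the 8 markers lay between 0.81 and 0.938, with that of Cd3e at 0.53, of Cd3d at 0.22, of Cd3g at -0.12 and of Nkg7 at 0.08. The 5 protein-coding genes most like Il7r by this measure were Nfkbid (0.985), Hk3 (0.984), Arhgap25 (0.978), Rgs1 (0.975) and Slc15a3 (0.975). The correlations with Il7r, added after its values had been seen, are descriptions over libraries of which the Mlkl Adi-KO mice on HFD spread most, and the part of macrophages, mast cells or other leukocytes in the Il7r values was not tested.

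**Figure D3:**
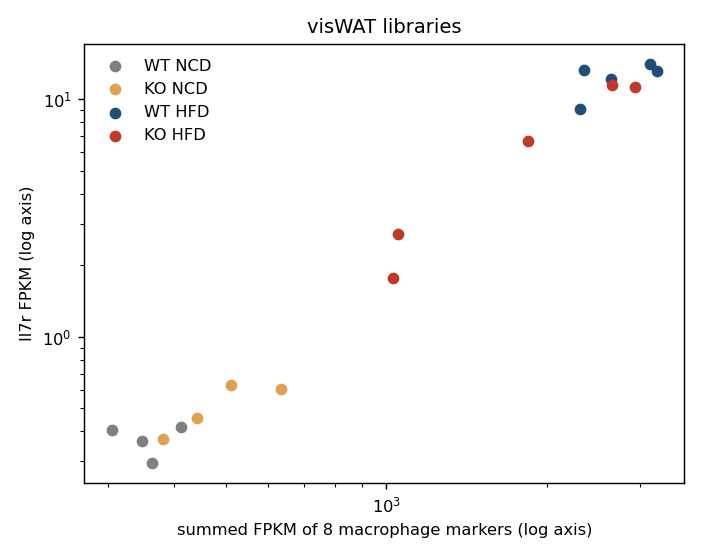
Il7r FPKM against the summed FPKM of 8 macrophage markers in the 18 visWAT libraries, both on log axes and colored by group. NCD libraries lie at 305 to 636 on the horizontal axis and below 0.63 FPKM Il7r, and HFD libraries at 1031 to 3225 and 1.77 to 14.1 FPKM.

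The CD3 genes lie within 1 cluster on chromosome 9, Cd3g at chr9:44880870-44891729, Cd3d at chr9:44893084-44898637 and Cd3e at chr9:44910038-44920925 (mm39), and all 3 were low but counted in every visWAT library. Cd3d was at 0.155, 0.195, 0.061 and 0.378 FPKM in WT mice 165, 180, 182 and 183 on NCD. On HFD it was at 0.527, 0.296, 0.806, 0.29 and 0.422 FPKM in WT mice 154, 155, 161, 162 and 164. The ranges overlapped through mouse 183, and the ratio of means of 2.38 did not pass the two-sided exact permutation test (p = 0.0635) or edgeR (log2 fold change 1.2, adjusted p = 0.106). With the library of mouse 183 left out, the edgeR log2 fold change was 1.74 (adjusted p = 0.0219). In Mlkl Adi-KO visWAT the means of Cd3d were 0.385 FPKM on HFD and 0.219 FPKM on NCD (exact permutation p = 0.143).

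Neither of the other CD3 chains passed. Cd3e averaged 0.227 FPKM on HFD and 0.189 FPKM on NCD in WT visWAT (exact permutation p = 0.452), and 0.144 against 0.153 FPKM in Mlkl Adi-KO visWAT (exact permutation p = 0.889). Cd3g averaged 0.409 against 0.283 FPKM in WT (exact permutation p = 0.0794) and 0.303 against 0.272 FPKM in Mlkl Adi-KO mice (exact permutation p = 0.611). The smallest p that this test can give for 5 against 4 mice is 0.00794. Across the 18 visWAT libraries, after subtracting group means, Cd3d and Cd3e correlated at 0.69, Cd3e and Cd3g at 0.51 and Cd3d and Cd3g at 0.30. The 5 genes most like the mean of the 3 chains were Pim2 (0.762), Marveld2 (0.749), 4931414P19Rik (0.736), Vps33b (0.734) and Mkrn1 (0.733), with none above 0.77. Pim2 encodes a survival kinase of lymphocytes. In liver, where the 3 chains had between 0 and 23 reads, the 5 most alike were Inpp5d (0.940), Marcksl1 (0.936), Capg (0.933), Cyth3 (0.930) and Marcks (0.928). Liver of Mlkl Adi-KO mouse 152 on HFD and WT mouse 182 on NCD exceeded all other liver libraries for Cd3d (0.373 and 0.292 against at most 0.2 FPKM) and Cd3g (0.303 and 0.34 against at most 0.262 FPKM). For Cd3e, mouse 182 ranked 1 and mouse 152 ranked 4. The part of these 2 libraries in the liver correlations was not tested.

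Of the co-receptors, only Cd8b1 was called between diets in visWAT, and in 1 genotype. Cd4 (chr6:124841655-124865184) averaged 0.272 FPKM on HFD and 0.28 FPKM on NCD in WT visWAT (exact permutation p = 0.897). In Mlkl Adi-KO visWAT it was at 0.0528, 0.244, 0.192, 0.101 and 0.139 FPKM in mice 151, 152, 153, 156 and 157 on HFD and at 0.204, 0.218, 0.408 and 0.291 FPKM in mice 166, 179, 197 and 199 on NCD. These ranges overlapped, and the ratio of means of 0.52 did not pass the exact permutation test (p = 0.0556) or edgeR (log2 fold change -0.94, adjusted p = 0.115). Cd8a (chr6:71350411-71356157) averaged 0.279 against 0.181 FPKM in WT (exact permutation p = 0.214) and 0.176 against 0.113 FPKM in Mlkl Adi-KO visWAT (exact permutation p = 0.317).

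Cd8b1 (chr6:71299772-71314478), next to Cd8a on chromosome 6, was at 0.205, 0.351, 0.28, 0.389 and 0.231 FPKM in Mlkl Adi-KO mice 151, 152, 153, 156 and 157 on HFD. On NCD it was at 0.0411, 0.22, 0.0793 and 0.0465 FPKM in Mlkl Adi-KO mice 166, 179, 197 and 199. These 4 values came from 2, 10, 4 and 2 reads, and mouse 179 overlapped the HFD range. The difference passed edgeR (log2 fold change 1.57, adjusted p = 0.042) and the exact permutation test, which is not adjusted over genes (p = 0.0159), but leaving out any 1 of the 9 libraries other than that of mouse 179 ended the edgeR call, with adjusted p between 0.0531 and 0.101 (0.101, 0.0971 and 0.0979 without the NCD mice 166, 197 and 199, and 0.054, 0.0809, 0.0684, 0.073 and 0.0531 without the HFD mice 151, 152, 153, 156 and 157). In WT visWAT, where NCD values were 0.26 to 0.286 FPKM, the means of 0.431 on HFD and 0.271 FPKM on NCD did not pass (exact permutation p = 0.151).

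Foxp3 (chrX:7439883-7461484) was at most 0.181 FPKM, or 24 reads, in any library. In visWAT it was at 0.127, 0.064, 0.077 and 0.181 FPKM in Mlkl Adi-KO mice 166, 179, 197 and 199 on NCD. It was at 0.0266, 0.0419, 0.0303, 0.0741 and 0.0816 FPKM in the 5 Mlkl Adi-KO mice on HFD, and the ranges overlapped (exact permutation p = 0.0635). WT means were 0.0378 FPKM on HFD and 0.0364 FPKM on NCD. The deposited table lists 4 genes that overlap the position of Foxp3, of which Ppp1r3f on the opposite strand reached 44 reads, so its few reads cannot be assigned with certainty where counting ignored strand.

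The cytotoxic genes differed in level. Nkg7 (chr7:43086497-43087673) was the most highly expressed of the 10 per length in NCD visWAT, at 1.05, 1.79, 1.37 and 1.64 FPKM in WT mice 165, 180, 182 and 183. On HFD it was at 1.26, 2.31, 3.75, 2.36 and 2.51 FPKM in WT mice 154, 155, 161, 162 and 164. Of the 5 HFD values, 4 lay above all NCD values, and mouse 154 lay among them. The difference on the log2(FPKM + 1) scale of 0.45 ± 0.19 (SE) did not pass limma (adjusted p = 0.0885), whereas without the library of mouse 154 it was 0.59 (limma, adjusted p = 0.0138). With libraries rescaled to an equal FPKM sum it was 1.01 (limma, adjusted p = 0.0146), where this rescaling shifted the median over all genes by 0.43. The WT NCD group holds the library of mouse 183, in which the seminal vesicle list summed to 2.48e+05 FPKM. The part of that library in the rescaled value was not tested. In Mlkl Adi-KO mice, Nkg7 was at 1.2, 1.38, 1.7, 1.26 and 1.94 FPKM on HFD and at 1.03, 0.641, 0.932 and 1.81 FPKM on NCD, a difference of 0.26 ± 0.15 (limma, adjusted p = 0.19) that became 0.41 (limma, adjusted p = 0.029) without the library of mouse 199 on NCD.

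Gzmb (chr14:56496295-56499717) averaged 0.315 FPKM on HFD and 0.401 FPKM on NCD in WT visWAT (exact permutation p = 0.714). The NCD mean rested on mouse 183, at 0.932 FPKM, the library with seminal vesicle reads, against 0.179 to 0.257 FPKM in the other 3 WT mice. In Mlkl Adi-KO visWAT the means were 0.145 FPKM on HFD and 0.229 FPKM on NCD (exact permutation p = 0.349). The summed natural killer cell list (Ncr1, Klrb1c, Klre1, Klra8 and Eomes, all with reads in every group) was at 0.542 to 1.56 FPKM over all visWAT libraries, with its highest group median, 1.31 FPKM, in WT mice on HFD, and its part in the Nkg7 and Gzmb values was not tested.

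**Figure D4:**
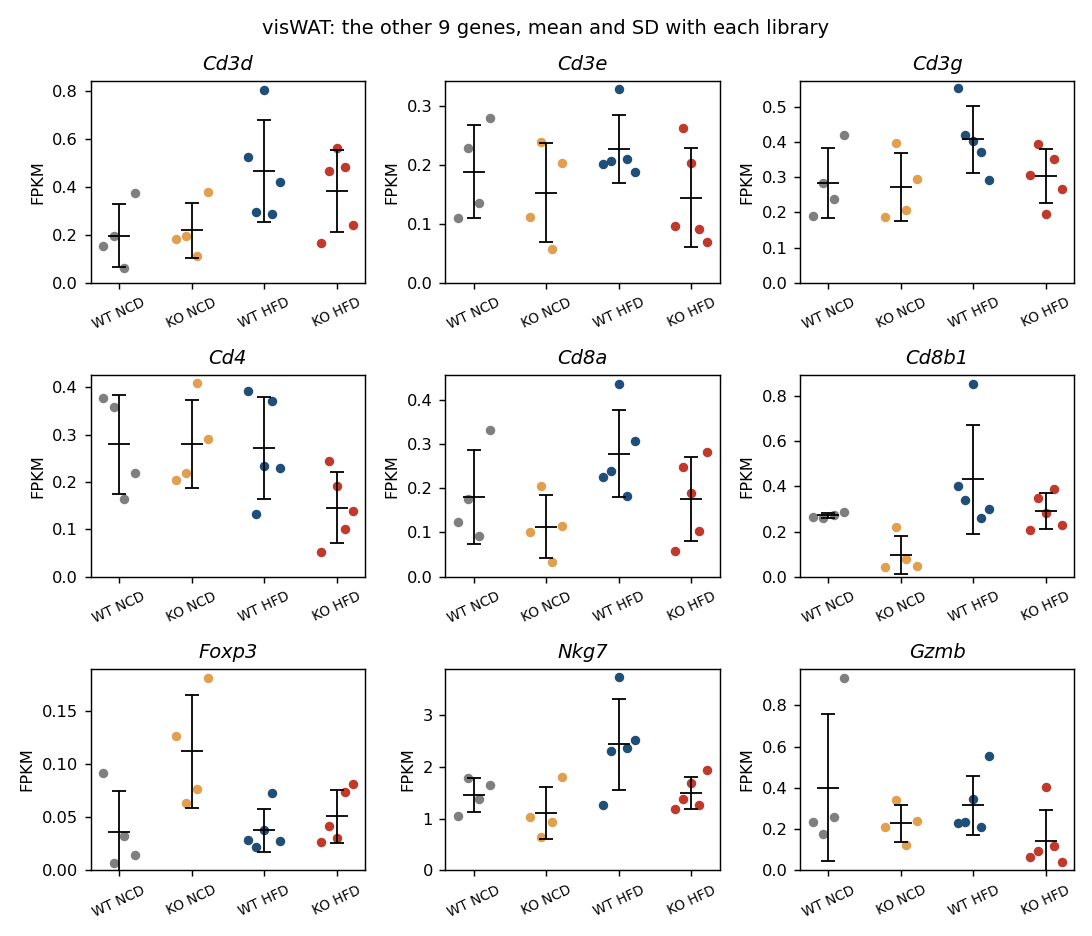
FPKM of the 9 genes other than Il7r in visWAT by group, with points for mice and bars for the mean and SD, cut at 0 where the SD reaches below it. The diet groups overlap within each genotype for all 9 genes, and Nkg7 (0.641 to 3.75 FPKM) is the only one of them above 1 FPKM.

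The second comparison asked whether loss of Mlkl in adipocytes altered these genes. Under HFD, the mean of Il7r in visWAT was 6.80 FPKM in knockout animals and 12.4 FPKM in WT animals, and the groups overlapped because mice 152 and 153 lay within the WT range. The difference of -1.01 ± 0.40 (SE) on the log2(FPKM + 1) scale did not pass (limma, adjusted p = 0.221), with a range of -1.25 to -0.70 as each library was left out. Nkg7 averaged 1.5 against 2.44 FPKM, a difference of -0.43 ± 0.17 (limma, adjusted p = 0.221). Neither of the 2 genes tested by limma was called, against 0.0215% of all genes, and none of the 10 by edgeR, against 0.013%, although both genes had an unadjusted p below 0.05 in limma (21.5% of all genes) and 1 of the 10 had in edgeR (15.7% of all genes), as did 1 of 2 in DESeq2. The median log2 fold change of the 10 genes in edgeR was -0.63, with 9 negative and Foxp3 positive, beside 0.00 over all genes. The 6 genes of the adipocyte list were at 3801 to 6513 summed FPKM in Mlkl Adi-KO and 3493 to 4051 in WT mice on HFD, and their part in these differences was not tested.

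On NCD, limma called 0 of 1 gene and edgeR 0 of 10 in visWAT, where either tool called 0% of all genes. The unadjusted p was below 0.05 for 0 of 1 gene in limma (3.75% of all genes), 1 of 10 in edgeR (5.28%) and 0 of 1 in DESeq2. Cd8b1 did not overlap between genotypes, at 0.0411 to 0.22 FPKM in the knockout and 0.26 to 0.286 FPKM in the WT group (exact permutation p = 0.0286, the smallest that 4 against 4 mice allow, not adjusted over genes). Its edgeR log2 fold change was -1.5 (adjusted p = 0.811). Il7r averaged 0.515 FPKM in knockout animals and 0.37 FPKM in WT animals (exact permutation p = 0.0857), and Foxp3 averaged 0.112 against 0.0364 FPKM (exact permutation p = 0.0857). The interaction term in visWAT was called for none of the genes (limma 0 of 2, edgeR 0 of 10, DESeq2 0 of 2), as for 0% of all genes in limma and in edgeR. This term had an unadjusted p below 0.05 for 1 of 2 genes in limma (13.2% of all genes), 1 of 10 in edgeR (11.9%) and 1 of 2 in DESeq2. For Il7r this term was -1.16 ± 0.48 (limma, adjusted p = 0.356).

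In liver, only Cd4 was called between diets, in Mlkl Adi-KO mice and by edgeR. Il7r was at 0.0363 to 0.145 FPKM in WT mice on NCD, 0.012 to 0.0801 FPKM in WT mice on HFD, 0.0382 to 0.111 FPKM in Mlkl Adi-KO mice on NCD and 0.0393 to 0.201 FPKM in Mlkl Adi-KO mice on HFD. No liver library had more than 18 Il7r reads, and a rise like that in visWAT was not seen there, with exact permutation p of 0.0952 in WT and 0.976 in Mlkl Adi-KO mice. Limma called 0 of 1 gene in WT liver (25.3% of all genes) and 0 of 1 in Mlkl Adi-KO liver (22.2%). EdgeR called 0 of 10 in WT liver (15.3% of all genes) and 1 of 10, Cd4, in Mlkl Adi-KO liver (14.7%). In WT liver the unadjusted p was below 0.05 for 1 of 10 in edgeR (28.4% of all genes), 0 of 1 in limma (37.5%) and 0 of 1 in DESeq2.

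Cd4 was at 0.85, 0.401, 0.354, 0.442 and 0.5 FPKM in liver of Mlkl Adi-KO mice 151, 152, 153, 156 and 157 on HFD, from 23 to 56 reads. On NCD it was at 0.15, 0.142, 0.241 and 0.133 FPKM (9 to 17 reads) in knockout mice 166, 179, 197 and 199. The 2 groups did not overlap, with a ratio of means of 3.06 (edgeR, log2 fold change 1.61, adjusted p = 0.00792, and exact permutation p = 0.0159), and the edgeR call held as each of the 9 libraries was left out, with log2 fold changes from 1.34 to 1.83. In WT liver, Cd4 was at 0.111, 0.212, 0.203, 0.482 and 0.203 FPKM in mice 154, 155, 161, 162 and 164 on HFD and at 0.21, 0.265, 0.215 and 0.224 FPKM in mice 165, 180, 182 and 183 on NCD, with overlap (exact permutation p = 0.992). Between genotypes on HFD, mouse 162 overlapped the knockout range, and the exact permutation p of 0.0317, not adjusted over genes, stood beside an edgeR log2 fold change of 1.08 with adjusted p = 0.348. The interaction of genotype and diet was not called for Cd4 (edgeR, log2 difference 1.52, adjusted p = 0.634). None of the CD3 chains was called beside Cd4. Their ratios of means in the same Mlkl Adi-KO comparison were 0.95 for Cd3d, 2.07 for Cd3e and 0.952 for Cd3g, with exact permutation p of 0.968, 0.0556 and 0.937, from at most 19 reads.

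A pair of liver libraries stood apart, those of Mlkl Adi-KO mouse 152 on HFD and of WT mouse 182 on NCD. Ptprc was at 1.62 and 0.98 FPKM in them and at 0.261 to 0.539 FPKM in the other 16, and the 4 genes of the pan-leukocyte list summed to 26 and 20.2 against 6.43 to 10.3 FPKM. Mouse 152 exceeded all 16 for 7 of the 10 genes and mouse 182 for 8 of them, 6 being shared. The 2 libraries were picked after their values had been seen. The share of all genes highest in them was not computed, so these counts are not a trait of the 10 genes. Cd8a was at 0.415 and 0.358 FPKM against at most 0.084 FPKM in the others, Cd8b1 at 0.738 and 0.456 against at most 0.126 FPKM, and Nkg7 at 1.43 and 1.64 against at most 0.686 FPKM. The macrophage list was highest in the same libraries, at 239.9 and 210.5 summed FPKM against 68.2 to 134, and its part in these values was not tested. The ratio of means of Cd8b1 between diets in Mlkl Adi-KO liver, 4.38, rested on mouse 152: the edgeR log2 fold change was 2.07 with this library and 0.70 without it, with adjusted p of 0.17 and 0.598.

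**Figure D5:**
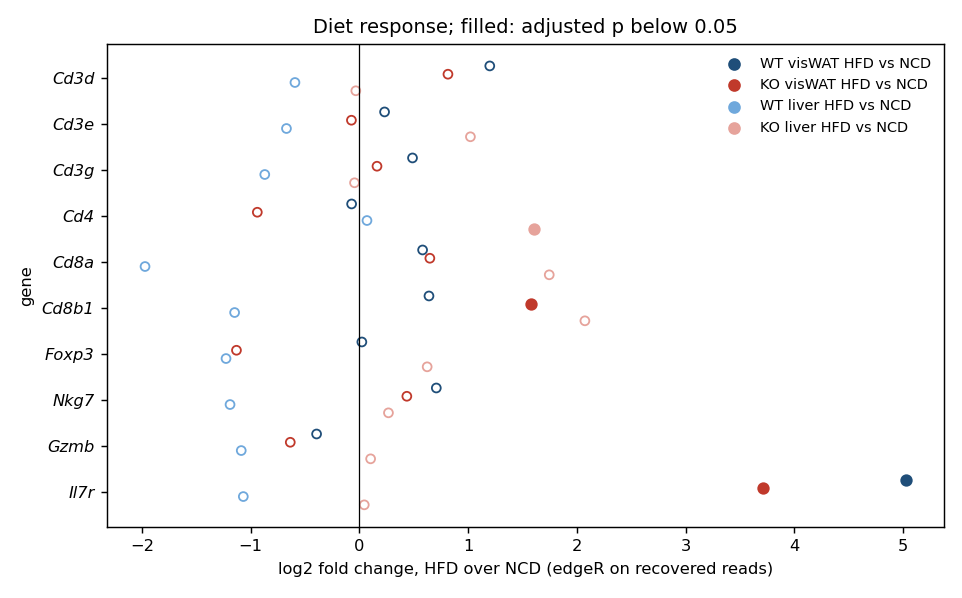
Log2 fold change of HFD over NCD for the 10 genes in the 4 diet comparisons, from edgeR on recovered reads, with filled points where the adjusted p was below 0.05. Il7r in visWAT (5.03 in WT and 3.71 in Mlkl Adi-KO), Cd8b1 in Mlkl Adi-KO visWAT (1.57) and Cd4 in Mlkl Adi-KO liver (1.61) are filled.

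No genotype difference was called in liver. On HFD, none of the 10 genes passed the limma filter (where 0.197% of all genes were called) and edgeR called 0 of 10 (0.122% of all genes). The unadjusted p in edgeR was below 0.05 for 2 of the 10 (10.6% of all genes), and all 10 fold changes were positive. On NCD, limma called 0 of 1 (0.00758% of all genes) and edgeR 0 of 10 (0.00501%), and all 10 fold changes in edgeR were negative. The unadjusted p was below 0.05 for 1 of 10 in edgeR (4.68% of all genes), 0 of 1 in limma (4.35%) and 0 of 1 in DESeq2. Of the 2 libraries that stood apart, 1 lies in the knockout group on HFD and 1 in the WT group on NCD, and their part in these signs was not tested. The liver interaction called 0 of 1 in limma (0.0151% of all genes) and 0 of 10 in edgeR (0.00898%). Its unadjusted p was below 0.05 for 3 of 10 in edgeR (6.47% of all genes), 0 of 1 in limma (6.12%) and 0 of 1 in DESeq2.

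Between tissues, over all 8 groups, Il7r was higher in visWAT by 1.76 ± 0.13 (SE) on the log2(FPKM + 1) scale (limma, adjusted p = 1.91e-14) and Nkg7 by 0.76 ± 0.10 (limma, adjusted p = 2.24e-08), so that both genes tested were called higher in visWAT, as were 43.4% of all genes, with 88.8% called in either direction. At no more than 0.201 FPKM in liver, Il7r passed the limma filter through visWAT only. It could therefore not have been called higher in liver. EdgeR called 8 of the 10 higher in visWAT and none lower, against 41.5% of all genes called higher in visWAT and 75.4% called in either direction. The 8 were the 3 CD3 chains, Cd8a, Cd8b1, Foxp3, Nkg7 and Il7r, with log2 fold changes from 1.02 for Cd3d to 4.61 for Il7r. Cd4 (-0.18, edgeR, adjusted p = 0.424) and Gzmb (0.01, edgeR, adjusted p = 1) were not called. Without the liver libraries of mice 152 and 182, edgeR also called 8. The median of Cd4 was 0.224 FPKM in visWAT and 0.22 FPKM in liver, whereas that of Cd8a was 0.186 FPKM in visWAT and 0.0388 FPKM in liver.

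A wider list of 50 T cell and cytotoxic genes was read beside the 10. In WT visWAT, 20 passed the limma filter, of which 6 were higher and 2 lower on HFD, where 37.8% of all genes were called, and edgeR called 9 higher and 4 lower of 50, where it called 28.3% of all genes, so that the list was called about as often as the background. In limma it had a median log2 fold change of 0.22 against -0.01 over all genes tested. The higher genes with the largest changes were Ccl5, a chemokine of cytotoxic cells (6.11 ± 1.52 against 3.13 ± 1.28 FPKM, SD, n = 5 and 4, limma, adjusted p = 0.013), Ccr7, a homing receptor of naive T cells and migrating dendritic cells (1.30 against 0.414 FPKM), Lat, an adaptor of T cell receptor signaling (1.28 against 0.503 FPKM), and Trbc2, a constant segment of the T cell receptor beta chain (3.16 against 1.85 FPKM). Lag3, an inhibitory receptor, fell from 3.33 to 2.56 FPKM (limma, adjusted p = 0.0272). In Mlkl Adi-KO visWAT, 6 of 19 were higher and 2 lower in limma, against 43.7% of all genes called, and 7 of 50 were higher and 3 lower in edgeR, against 29.7%. The limma median was 0.15 against 0.01. Trac, the constant segment of the alpha chain, rose from 0.939 to 2.67 FPKM (limma, adjusted p = 0.0187), Ccl5 from 1.73 to 3.59 FPKM, Thy1 from 4.54 to 7 FPKM and Ccr7 from 0.253 to 0.792 FPKM, and Klrg1 fell from 0.801 to 0.399 FPKM. Ccr7 on NCD in both genotypes, and Klrg1 on HFD in Mlkl Adi-KO mice, lay below the 0.5 FPKM filter. Both passed it through the other diet, so their limma calls are not independent of the diet difference.

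In liver, 7 of the 50 genes passed the filter in each diet comparison, and limma called 3 higher on HFD in each, Zap70 and Themis among them in both, where 25.3% of all genes were called in WT and 22.2% in Mlkl Adi-KO liver. EdgeR called 2 higher and 1 lower of 43 in WT liver, against 15.3% of all genes, and 3 higher of 41 in Mlkl Adi-KO liver, against 14.7%. Many genes of the list had few reads in liver, which limits how many could be called. Zap70, a kinase of T cell receptor signaling, rose from 3.99 to 6.43 FPKM in WT and from 2.33 to 5.85 FPKM in Mlkl Adi-KO liver, and Themis, a regulator of thymic selection, from 0.176 to 1.57 FPKM in WT animals and from 0.0516 to 0.865 FPKM in knockouts. Themis lay below the 0.5 FPKM filter on NCD in both genotypes and passed it only through HFD. Its part in the limma counts is thus not independent of the diet difference. The CD3 chains, at or below 0.373 FPKM in the same tissue, did not pass. No gene of the wider list was called between genotypes or for the interaction in either tissue, by limma or by edgeR. Between genotypes in HFD visWAT, the unadjusted p was below 0.05 for 7 of 18 genes in limma, against 21.5% of all genes, and for 11 of 50 in edgeR, against 15.7%. In NCD visWAT it was for 1 of 18 (3.75% of all genes) in limma and 6 of 50 (5.28%) in edgeR, in HFD liver for 2 of 7 (12.6%) and 2 of 43 (10.6%), and in NCD liver for 1 of 8 (4.35%) and 3 of 42 (4.68%). For the interaction it was for 1 of 19 (13.2%) and 6 of 50 (11.9%) in visWAT and for 1 of 7 (6.12%) and 4 of 50 (6.47%) in liver. Between tissues, limma called 12 of 15 higher in visWAT and 3 higher in liver, where 43.4% of all genes were called higher in visWAT and 88.8% in either direction, and edgeR called 42 of 50 higher in visWAT and 4 higher in liver, against 41.5% and 75.4%. They included Thy1 (6.11 against 0.444 FPKM), Lag3 (3.20 against 0.80 FPKM), Trac (2.36 against 0.327 FPKM, with 1 visWAT library at 10.5 FPKM) and Cd2 (1.39 against 0.141 FPKM) in visWAT and Zap70 (4.82 against 0.405 FPKM) and Tcf7 (1.87 against 0.868 FPKM) in liver. Thy1, Trac and Cd2 in liver and Zap70 in visWAT had means below the 0.5 FPKM filter. They passed it through the other tissue, so their direction in limma followed from the filter.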

How the data were processed

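Liver and visWAT of the same 18 mice were sequenced as 36 libraries. The authors trimmed paired-end reads with fastp, aligned them with HISAT2 to mm39 and counted genes with featureCounts (1.5.0-p3, per the submitters' processing notes), and deposited 1 table of FPKM with gene lengths (another column of that table, used only to recover reads) and tables with raw read counts beside their own comparisons. Those fold changes and p-values were not used, nor were their pathway files or 72 columns of normalized counts and repeated FPKM of the same libraries. The counts deposited by the authors fixed the library size behind each FPKM. All values then came out whole within 0.01 of a read (100% in every library), and the library sizes behind the FPKM exceeded the summed gene reads 1.01 to 1.40 times for visWAT but reached only 0.737 to 0.812 of them for liver, so that the deposited FPKM carry a scaling between libraries.

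The main test was limma (3.58.1) on log2(FPKM + 1) over genes with a mean of at least 0.5 FPKM, with a trended empirical Bayes fit, Benjamini-Hochberg adjustment over all genes tested and a two-sided threshold of 0.05. Genes below this filter were compared by a two-sided exact permutation test of mean FPKM, not adjusted over genes. EdgeR (4.0.16, quasi-likelihood, TMM) on recovered reads of genes with at least 10 reads, added after seeing the data, covered all 10 genes, and DESeq2 (1.42.0) covered the limma gene set. The limma step was tested on simulated data. The 10 genes and all lists were chosen with earlier results of these data known. The 10 genes were named in every group, as were up to 4 called genes per direction of the 50-gene list (1 of which is not reported here) and the 5 genes most correlated with the CD3 chains. Alternatives were a pseudocount of 0.1, other filters, equal FPKM sums, single libraries left out and the mouse as a block. The tissues of 1 mouse share the animal, and the deviations from group means of its 2 libraries correlated at -0.0516 to 0.223 (median 0.0283). Mice were separate animals. Intervals and limits from counts cover counting error only. Promoter sequences are from RefSeq (GRCm38.p6), matched to GRCm39.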

Additional observations from a re-analysis of the deposited data

Results flagged for a closer look

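Single mice far from the rest of their group were sought in the 80 combinations of gene and group for the 10 genes, where a gap to the nearest mouse above Dixon's 95% limit marks about 1 in 20 groups by chance, and 15 values met it. Liver of Mlkl Adi-KO mouse 152 on HFD accounted for 6 of them, with Cd3e at 0.102, Cd8a at 0.415, Cd8b1 at 0.738, Foxp3 at 0.0797, Nkg7 at 1.43 and Il7r at 0.201 FPKM. The other liver values were Cd8a at 0.358 FPKM in WT mouse 182 on NCD, Cd4 at 0.482 FPKM in WT mouse 162 on HFD and at 0.241 FPKM in Mlkl Adi-KO mouse 197 on NCD, and, from 2 reads each, Cd8b1 at 0.0801 FPKM in mouse 199 and Foxp3 at 0.0241 FPKM in mouse 166, both Mlkl Adi-KO on NCD. In visWAT they were Cd3e at 0.328 and Cd8b1 at 0.853 FPKM in WT mouse 161 on HFD, Gzmb at 0.932 FPKM in WT mouse 183 on NCD and Gzmb at 0.405 FPKM in Mlkl Adi-KO mouse 153 on HFD. Mlkl was far from the rest of its group in liver of WT mouse 162 on HFD (2.99 FPKM, or 110 reads) and of Mlkl Adi-KO mouse 152 on HFD (3.46 FPKM, against at most 2.07 FPKM in the other 4 mice). The cause of these values was not tested.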

How the results depend on the processing

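Of the genes called by limma, Il7r kept its direction and its call in both visWAT diet comparisons and between tissues under every alternative run, and Nkg7 between tissues. In WT visWAT the number of the 10 genes called was 1 and became 2 with equal FPKM sums, which shifted the median over all genes there by 0.43. The number was 1 to 2 with single libraries left out (2 without that of HFD mouse 154). In edgeR it was 1, 1 to 2 with single libraries left out (2 without HFD mouse 154 or NCD mouse 183) and 2 without the visWAT libraries of mice 182 and 183 together. In Mlkl Adi-KO visWAT it was 1 and became 2 without a filter, with a filter of 0.1 FPKM and in edgeR on genes with at least 10 reads, and was 1 to 2 with single libraries left out, in limma (2 without NCD mouse 199) and in edgeR (main count 2, which became 1 without any library but that of NCD mouse 179). In Mlkl Adi-KO liver it was 0 and became 1 without a filter, with a filter of 0.1 FPKM and in edgeR. Between tissues it was 2 and became 8 without a filter, 7 with a filter of 0.1 FPKM and 8 in edgeR, where more genes were tested and 75.4% of all genes were called. Shares over all genes are given for the main limma and edgeR fits only, not for DESeq2 or the other alternatives. Nkg7 in Mlkl Adi-KO liver changed sign with a pseudocount of 0.1 (-0.00247 in place of 0.042 on the log2 scale, never called). Il7r and Nkg7, the only genes of the 10 with a main limma fit, gave 15 results of single genes. Under the alternatives these had 325 values, of which 321 kept direction and side of the threshold, 3 passed it newly and 1 changed sign. The other genes, Cd4 and Cd8b1 among them, are not part of this tally. The mouse block for the paired tissues was fitted in limma only, where it covered Il7r and Nkg7, and these 2 genes were called between tissues, as without it. The 8 genes called between tissues by edgeR were not fitted with the block. Nor was the block fitted within a tissue, where the mice of the groups differ. All other counts, those between genotypes and for both interactions, stayed at 0. In liver most of these genes had a median below 10 reads, so their group differences rest on few reads.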
